A study of Mus musculus with 5 samples.

Results

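The sodium pump genes described here are 6 of the 47729 genes in the count table. Atp1b1, Atp1b2 and Atp1b3 encode beta subunits of the pump, and Fxyd1, Fxyd6 and Fxyd7 encode small FXYD proteins that bind it. They were chosen by name, and each had 1 row matched by Ensembl identifier. The 5 samples are right hemispheres of the brain from C57BL/6 mice, an inbred strain, all male and aged 5 months, with 1 mRNA library each and no treatment or genetic change named in the labels. They form 1 group, so genes were compared within each sample and samples were compared with each other. The samples are called animals here although the labels do not say that each came from its own mouse, so any p-value rests on sample-to-sample spread alone, and that spread may be technical. Replicate numbers follow accession order and only name the animals.

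The sodium pump moves sodium out of the cell and potassium in at the cost of ATP, and so maintains the ion gradients that action potentials and transport coupled to sodium use up. Its catalytic chain needs a beta subunit, a glycoprotein with a single membrane span, to fold and to reach the cell surface. FXYD proteins, named after a motif they share, are short single-span proteins that attach to the assembled pump and adjust its affinity for ions. In brain, Atp1b1 is known mainly from neurons, Atp1b2 (the adhesion molecule on glia) mainly from astrocytes, and Atp1b3 from many cell types. Fxyd1 encodes phospholemman, a kinase target best known from heart and muscle and present in choroid plexus, Fxyd6 encodes phosphohippolin, first described in hippocampus, and Fxyd7 is known from neurons.

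Library depth ran from 13184234 to 15570064 counts. Neuron markers summed to between 1420.4 and 1529 RPKM (counts divided by gene length in kilobases and scaled to the depth of the library) over 8 genes, led by Slc17a7, Snap25 and Eno2. Astrocyte markers, led by Aldoc, Gja1 and Slc1a3, summed to between 531 and 586 over 8 genes, and choroid plexus markers, led by Ttr, Enpp2 and Clic6, to between 592 and 661 over 7. Of the markers in these lists none was at 0. The cerebellar genes Pcp2, Gabra6 and Cbln3 stood at 0.878, 1.65 and 0.993 RPKM in animal 4 and at no more than 0.166, 0.030 and 0.142 in the other animals. The red blood cell genes Hbb-bs, Hbb-bt, Hba-a1, Hba-a2 and Alas2, 5 of 5 of which varied more than the abundance trend, summed to 236 in animal 3 and 62.2 in animal 5.

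The first sequence to show belongs to the gene with the highest level of the 6, and the second to the gene with the lowest. Each is the stretch of 250 bases just before the start of transcription in RefSeq (build GRCm38.p6, both on the minus strand, written 5′ to 3′), with CG dinucleotides in capitals. The Atp1b1 stretch is chr1:164458356-164458605 and the Fxyd1 stretch is chr7:31054854-31055103. Neither overlaps an annotated exon of the 6 genes.
Atp1b1: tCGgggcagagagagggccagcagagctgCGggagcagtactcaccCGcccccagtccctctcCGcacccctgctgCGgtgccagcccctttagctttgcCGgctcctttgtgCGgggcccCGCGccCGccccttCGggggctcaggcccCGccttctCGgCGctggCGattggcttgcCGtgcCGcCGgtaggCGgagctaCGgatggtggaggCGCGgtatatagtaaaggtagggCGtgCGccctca
Fxyd1: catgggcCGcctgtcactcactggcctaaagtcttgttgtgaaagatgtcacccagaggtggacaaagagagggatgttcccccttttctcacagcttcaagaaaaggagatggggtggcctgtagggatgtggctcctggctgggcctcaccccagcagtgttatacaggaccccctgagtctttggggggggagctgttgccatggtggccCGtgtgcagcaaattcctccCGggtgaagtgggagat
The Atp1b1 stretch held 24 CG dinucleotides and 70.4% G and C, and that of Fxyd1 held 3 and 57.2%. Over the 32851 promoters of the RefSeq table the medians were 6 and 52.4%. The Fxyd6 stretch held 5 CG dinucleotides, and the RefSeq starts of Atp1b3, of which there are 2, had 24 and 35. Entries were matched for 4 of the 6 genes, not for Atp1b2 and Fxyd7. On either strand, TATATA occurred 1 time, GGGCGG 2 times and CCAAT 1 time in the Atp1b1 stretch and not at all in that of Fxyd1. These motifs are found in 5.25%, 32.7% and 33.9% of all promoters of this length, and TATAAA, which can overlap TATATA, in 12.4% of them and in neither stretch. The Fxyd1 start lies inside the gene as GENCODE annotates it. A match of letters is a description only.

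Among the 3 beta subunit genes described, Atp1b1 had by far the most transcript in every brain, with Atp1b2 next and Atp1b3 lowest. Atp1b1 (ENSMUSG00000026576, GRCm38 chromosome 1, 164437109 to 164458355) stood at 510.2, 502.2, 507, 535 and 539 RPKM in animals 1 to 5, a mean of 519 ± 16.99 (here and throughout, ± gives the SD, n = 5 animals). These rest on 21036 to 25668 counts per library, and the mean ranked 19 among the 17736 protein-coding genes with a count. In bulk tissue, a change in how many cells of a type there are and a change in RNA per cell cannot be told apart.

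Atp1b2 (ENSMUSG00000041329, chromosome 11, 69599736 to 69605942) stood at 146, 143, 151, 154 and 132 RPKM in animals 1 to 5, a mean of 145 ± 8.73. Animal 5 was the lowest and animal 4 the highest, a range of 1.17-fold. Atp1b3 (ENSMUSG00000032412, chromosome 9, 96332655 to 96364442) stood at 39.6, 42.2, 40.9, 43.2 and 41.7, a mean of 41.5 ± 1.35, with no animal apart from the rest. The median protein-coding gene with a count had 3.70 RPKM, so each of the 3 lay well above the middle of the table.

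Of the FXYD genes, Fxyd7 and Fxyd6 stood close together and Fxyd1 lay below both. Fxyd7 (ENSMUSG00000036578, chromosome 7, 31042513 to 31051467) had 70.4, 69.9, 67.9, 71.9 and 66.4 RPKM in animals 1 to 5, a mean of 69.3 ± 2.16. Fxyd6 (ENSMUSG00000066705, chromosome 9, 45370185 to 45396159) had 55.6, 69.4, 63.8, 61.4 and 59.8, a mean of 62.0 ± 5.09. The ranges of this pair of genes overlapped, with Fxyd6 lowest in animal 1 and highest in animal 2. Fxyd1 (ENSMUSG00000036570, chromosome 7, 31051678 to 31057199) had 10.7, 9.96, 9.83, 11.8 and 10.2, a mean of 10.5 ± 0.820. It was highest in animal 4 and rests on 294 to 403 counts per library, the fewest of the 6 genes. In the plot of levels by gene, no neighbours in the order other than Fxyd7 and Fxyd6 overlap between animals.

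**Figure D1:**
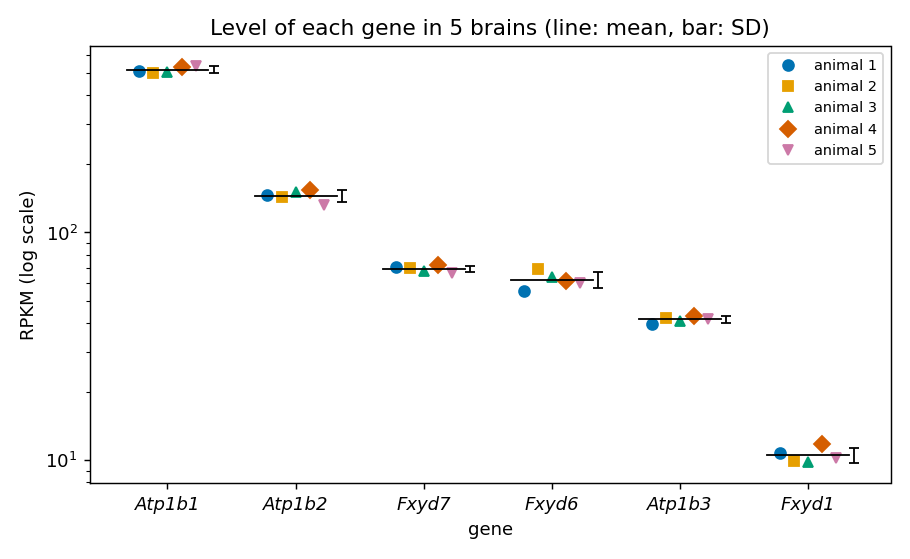
RPKM (log axis) of the 6 genes in each of the 5 animals, worked out from the counts and the total of the same library. Points are animals, lines are means and bars are the SD (n = 5). Atp1b1 lies between 502.2 and 539 and Fxyd1 between 9.83 and 11.8, and the points of Fxyd7 and Fxyd6 overlap.

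Shares within each family were similar in animals 1 to 4 for the beta subunits, and animal 5 stood apart. Atp1b1 made up 73.3%, 73.1%, 72.6%, 73.0% and 75.7% of the summed beta subunit RPKM in animals 1 to 5, a mean of 73.5% ± 1.22. Atp1b2 made up 20.6% ± 1.21 and Atp1b3 5.89% ± 0.165. In animal 5 the Atp1b1 share was the highest and the Atp1b2 share, at 18.5%, was the lowest, against 20.7% to 21.6% in the other animals. The beta subunit sum was 705 ± 17.7 RPKM and the sum of the 3 FXYD genes 142 ± 5.48. Within the FXYD sum, Fxyd7 took 48.9% ± 1.76, Fxyd6 43.7% ± 2.29 and Fxyd1 7.42% ± 0.616. The Fxyd1 share was 22.0% with the longest and 27.3% with the shortest protein-coding transcripts, and the Fxyd6 share 25.3% with the union of exons. Fxyd6 ran from 40.6% in animal 1 to 46.5% in animal 2.

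Levels were also compared in pairs within each animal, as the log2 ratio of RPKM plus 0.1. All 15 pairs of the 6 genes held 1 order in all 5 animals. The exact sign-flip test, two-sided over 32 sign patterns, gave p = 0.0625 for each pair and 0.0625 adjusted over the 15 pairs. With 5 animals this is the lowest p possible, so 0.05 is out of reach. Atp1b1 exceeded Atp1b2 by 3.58-fold (log2 ratio 1.84 ± 0.11) and Atp1b3 by 12.5-fold (3.64 ± 0.049), and Atp1b2 exceeded Atp1b3 by 3.48-fold (1.80 ± 0.096). Fxyd7 exceeded Fxyd1 by 6.55-fold (2.71 ± 0.081) and Fxyd6 exceeded Fxyd1 by 5.85-fold (2.55 ± 0.19). These FXYD folds depended on gene length. Fxyd7 over Fxyd1 was 1.87-fold with the longest and 1.48-fold with the shortest protein-coding transcripts, and Fxyd6 over Fxyd1 was 2.56-fold with the union of exons, 1.67-fold with the longest and 1.18-fold with the shortest transcripts.

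The smallest difference was that of Fxyd7 over Fxyd6, 1.12-fold with a log2 ratio of 0.16 ± 0.13. It ran from 0.011 in animal 2 to 0.34 in animal 1 and so was hardly larger than its spread. On CPM, counts scaled to the library total without a length, this order turned in all 5 animals (log2 ratio -1.20). That of Fxyd7 over Atp1b3 turned too (-1.04). Of the 6 lengths used for RPKM here, that of Fxyd7, 693 bases, is the shortest. The steadiest ratio was that of Atp1b1 to Atp1b3, from 3.57 to 3.69 on the log2 scale, and the least steady that of Fxyd6 to Fxyd1, from 2.36 to 2.79.

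**Figure D2:**
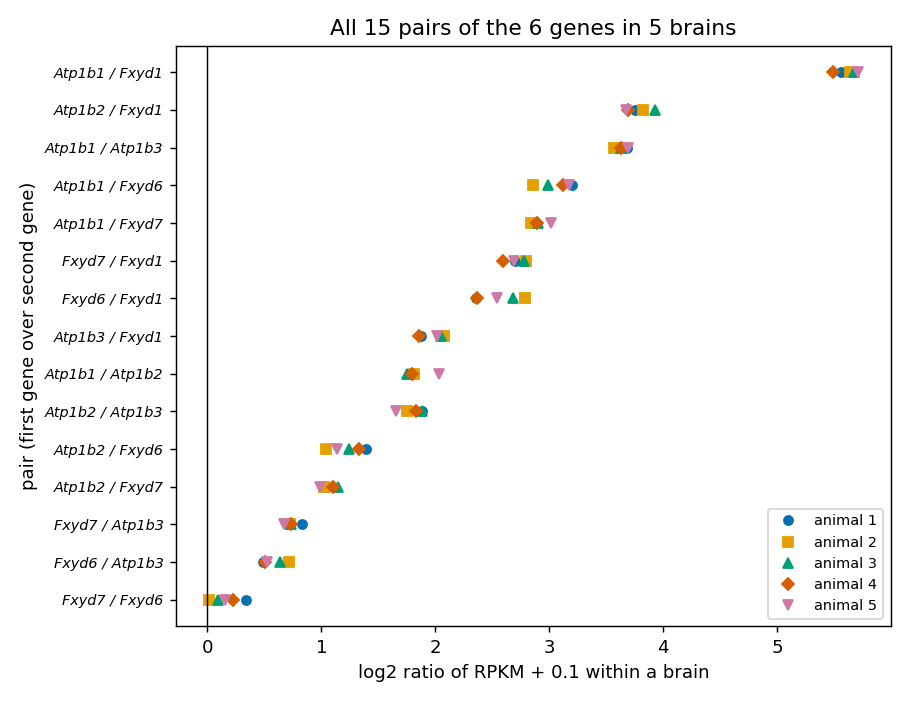
Log2 ratio of RPKM + 0.1 of the first gene over the second within each animal, for the 15 pairs of the 6 genes. Each point is an animal, and all points lie to the right of 0, with those of Fxyd7 over Fxyd6 closest to it (0.011 to 0.34).

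How far the FXYD levels lie apart depended on the gene length used. The length recovered from the deposited tables was 2186 bases for Fxyd1, which equals the union of its exons in GENCODE, whereas its 11 protein-coding transcripts of the GENCODE basic set were 438 to 620 bases long. Per kilobase of the longest of these, Fxyd1 had 37.1 ± 2.89 RPKM, and per kilobase of the shortest 52.5 ± 4.09. With the shortest transcript of every gene, Fxyd1 exceeded Atp1b3 in 4 of 5 animals (log2 ratio of Atp1b3 to Fxyd1 -0.074, exact two-sided sign-flip p = 0.188, values with transcript lengths being chosen after the data were seen). Fxyd1 was thus the lowest of the 6 genes with 3 of the 4 lengths but stood between 10.5 and 52.5 RPKM.

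For Fxyd6 the recovered length was 1791 bases, near its basic transcripts of 1788 and 1789, whereas the union of exons in the annotation used here was 4107. With that union Fxyd6 stood at 27.0 ± 2.22 RPKM, below Atp1b3 in all 5 animals (log2 ratio of Fxyd6 to Atp1b3 -0.62). Atp1b2 stood at 209 ± 12.6 per kilobase of its basic transcript of 2842 bases and Atp1b1 at 620 ± 20.3 per kilobase of 2580 bases. The order of Atp1b1, Atp1b2 and Atp1b3 was the same in all 5 animals with each of the 4 lengths.

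**Figure D3:**
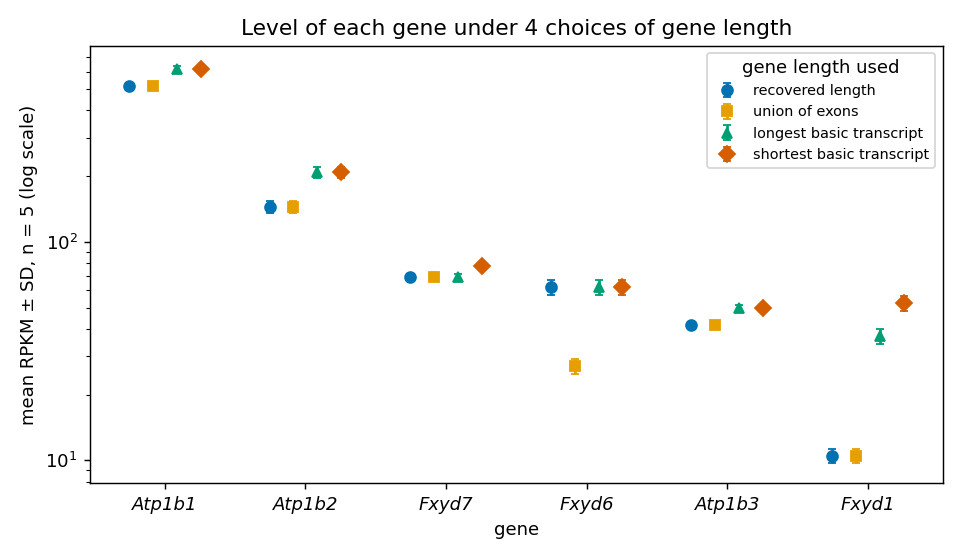
Mean RPKM ± SD (log axis, n = 5) of the 6 genes with 4 choices of gene length, namely the recovered length, the union of exons, and the longest and the shortest protein-coding transcript of the GENCODE basic set. Fxyd1 moves from 10.5 to 52.5 and Fxyd6 from 62.0 to 27.0 with the length, while Atp1b1 stays highest.

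Several FXYD genes lie side by side. On the minus strand of chromosome 7, Fxyd1, Fxyd7 and Fxyd5 follow each other in the direction of transcription, with 210 bases between Fxyd1 and Fxyd7 and 31 between Fxyd7 and Fxyd5. Lgi4 lies 2142 bases from Fxyd1 on the other strand, and Fxyd3 is farther off. The mean levels of Fxyd1, Fxyd7 and Fxyd5 were 10.5 ± 0.820, 69.3 ± 2.16 and 2.67 ± 0.198 RPKM, and that of Fxyd3 was 0.117 ± 0.0635. Fxyd7 exceeded its neighbour Fxyd5 by a median of 26.9-fold (22.8 to 28.4 over the animals) and, on CPM, without a length, by 4.45-fold (3.77 to 4.70). Fxyd7 exceeded Fxyd1 without a length by a median of 2.08-fold (1.93 to 2.23). On chromosome 9, Fxyd6 lies 3509 bases from Fxyd2, which is best known from kidney and had 4.04 ± 0.182 RPKM, and exceeded it by a median of 15.1-fold (13.1 to 17.2), and on CPM by 42.8-fold (37.0 to 48.7). Whether reads that run past the end of a gene add to the next was not tested, and the strand setting of the counting is not given in the sources used here.

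Overlap or shared sequence with another annotated gene was found for Atp1b1 and Atp1b3. Atp1b1 shares 575 of the 3081 bases in the union of its exons with Nme7 on the other strand. Nme7 had 170 to 221 counts per library, against at least 21036 for Atp1b1. Of the words of 50 bases in Atp1b3 transcripts, 9.66% also occur in the annotated gene Gm1848, which had 1 or 2 counts per library. The other 5 genes shared no such word with another annotated gene. Words were taken every 5 bases and sought only in transcripts read in their own direction, so overlap on the other strand is not seen. The counts of Nme7 and Gm1848 do not show how many reads Atp1b1 and Atp1b3 lost or gained. The strand setting and the handling of multiply matching reads are not given.

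The brains were then compared with each other. None of the 6 genes was called more or less variable than genes of like abundance. Few genes were called over the whole table, so this does not show that the 6 vary like other genes. In the edgeR quasi-likelihood fit of 14770 genes, 0 of the 6 passed an adjusted p of 0.05 in either direction, and none had an unadjusted p under 0.05. Over all genes tested 45 (0.305%) were called more variable than the trend, and 0 (0%) less variable, with 802 and 739 genes at an unadjusted p under 0.05. DESeq2 marked none of the 6 as a dispersion outlier and limma on log2 RPKM called none. The median SD of the 6 genes was 0.071 on the log2 scale, against 0.10 over all genes tested, and their median log2 ratio to the trend was -0.016, against -0.19. The SDs were not matched for abundance, which the ratio to the trend takes into account.

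Fxyd6 and Atp1b2 had the widest spread for their abundance. The log2 ratio of the quasi-dispersion (the spread between animals beyond what the fit foresees) to the trend was 1.48 for Fxyd6 (edgeR adjusted p = 0.949) and 1.37 for Atp1b2 (adjusted p = 0.956), higher than for 93.2% and 91.9% of the genes tested. Fxyd7 (-1.62) and Atp1b3 (-1.36) lay below the trend, above only 14.4% and 18.6% of genes. Atp1b1 (-0.36) and Fxyd1 (0.33) lay nearer to it. Over the alternatives with a p, the edgeR or limma adjusted p for more spread ran from 0.816 to 0.997 for Fxyd6 and from 0.709 to 0.994 for Atp1b2. The lowest unadjusted p among them was 0.0294 for Fxyd6 and 0.0243 for Atp1b2. Without animal 5 the log2 ratio of Atp1b2 was 0.16, and without animal 2 that of Fxyd6 was 0.51.

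**Figure D4:**
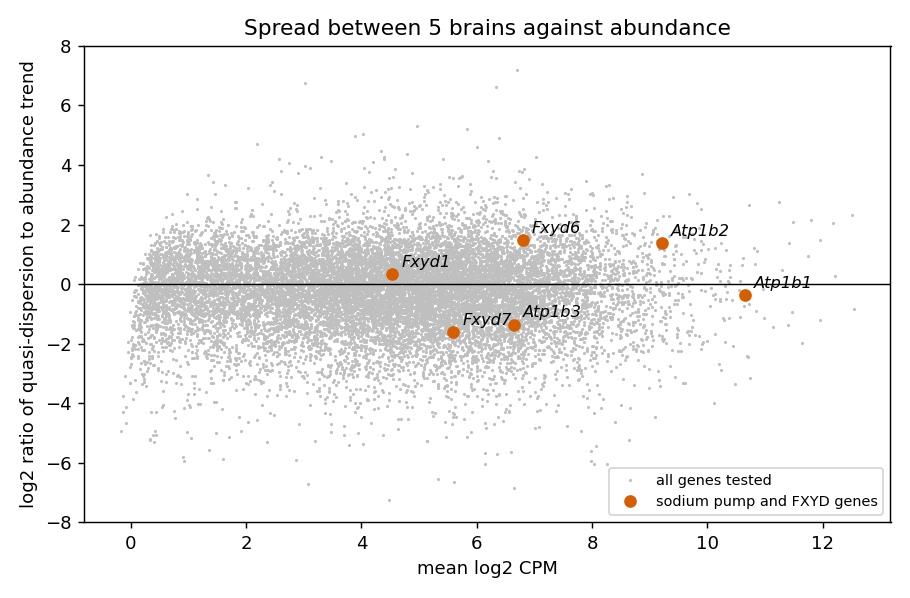
Log2 ratio of each gene's quasi-dispersion to the abundance trend (vertical axis) against its mean log2 CPM (horizontal axis), for the 14770 genes tested in grey and the 6 sodium pump and FXYD genes in orange. Fxyd6 (1.48) and Atp1b2 (1.37) lie above the trend and Fxyd7 (-1.62) and Atp1b3 (-1.36) below it, all inside the cloud of genes.

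Counting error sets part of these spreads. For Fxyd7 the coefficient of variation between animals was 3.12%, and counting alone gives 3.83%. For Atp1b3 the values were 3.24% and 2.67%, so for Fxyd7 and Atp1b3 the differences between animals were near the limit of depth. For Fxyd1 they were 7.80% and 5.55%, so counting makes up part of its spread and part lies beyond counting error. Fxyd6 (8.22% against 2.53%), Atp1b2 (6.02% against 1.09%) and Atp1b1 (3.28% against 0.664%) also varied by more than counting error.

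The animals that stood high or low differed from gene to gene. Deviations are of log2 CPM, scaled by TMM, from the mean of the 5 animals. Fxyd6 deviated by 0.15 in animal 2 and by -0.14 in animal 1, whereas Atp1b2 was lowest in animal 5 (-0.14) and highest in animal 4 (0.092). Fxyd1 was highest in animal 4 (0.18) and lowest in animal 2 (-0.091). Atp1b1 was highest in animal 5 (0.055), the animal with the lowest Atp1b2, and lowest in animal 2 (-0.063). In animal 4, 5 of the 6 genes lay above their mean, all but Fxyd6 (-0.0097), and in each of animals 2, 3 and 5 only 2 of 6 did. The root mean square difference between genes was largest for Fxyd6 and Fxyd1, at 0.17, and smallest for Atp1b1 and Atp1b3, at 0.044. Both Atp1b1 and Atp1b3 deviated little (at most 0.063 and 0.058), so their small difference does not show a shared pattern. In animals 2 and 5 Atp1b1 deviated by -0.063 and 0.055, and Atp1b3 by 0.0087 and 0.0050.

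**Figure D5:**
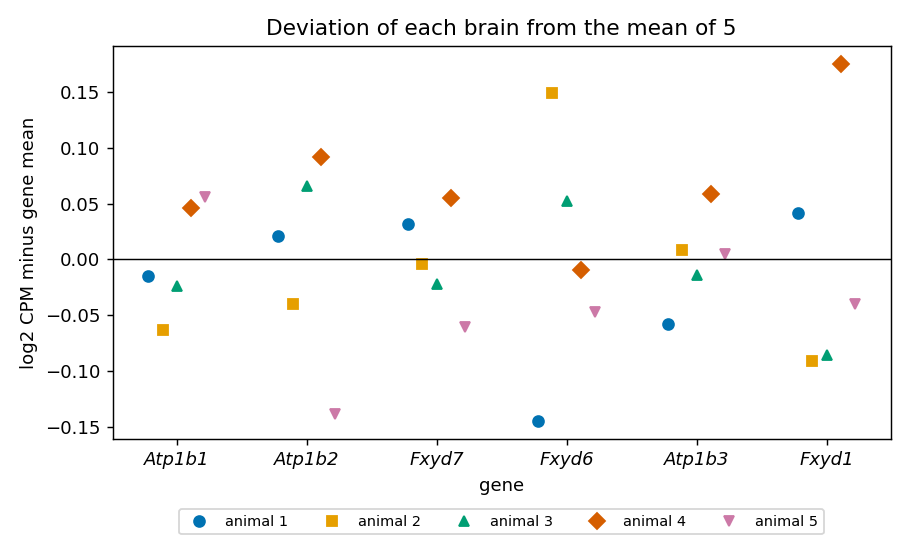
Deviation of log2 CPM from the mean of the 5 animals for each gene, with 1 point per animal. Fxyd6 spans -0.14 in animal 1 to 0.15 in animal 2, Atp1b2 has its lowest point in animal 5 (-0.14) and Fxyd1 its highest in animal 4 (0.18).

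Markers of cell types and of library quality are given beside these deviations, and their part in them was not tested. In animal 4, where Fxyd1 was highest, 6 of 6 oligodendrocyte markers lay above their mean (sum 1044 RPKM, against 854 to 895 in the other animals), 5 of 5 meningeal markers did (sum 40.5, against 31.9 to 38.7), 6 of 8 astrocyte markers did (sum 586, against 531 to 569) and 3 of 7 choroid plexus markers did. Animal 4 was also the animal with the high cerebellar genes. In animal 5, where Atp1b2 was lowest, 5 of 8 astrocyte markers lay above their mean (sum 537, against 531 to 586 in the other animals). The rest, Aldoc (-0.13), Gfap (-0.12) and Fgfr3 (-0.096), each had their lowest deviation there. Of the oligodendrocyte markers 0 of 6 lay above their mean in animal 5, and of the red blood cell genes 0 of 5. Neuron markers had their highest sum there (1529, 6 of 8 above their mean), in the animal with the highest Atp1b1. In animals 1 to 4, 7, 0, 4 and 3 of 8 neuron markers lay above their mean. Atp1b1 deviated by -0.015, -0.063, -0.024 and 0.046 in these animals. The mitochondrial share of counts was 3.61%, 3.56%, 3.80%, 3.96% and 3.45% in animals 1 to 5, lowest in animal 5 and highest in animal 4, the same order over the animals as that of Atp1b2. In animal 2, where Fxyd6 was highest, 6 of 6 long nuclear RNAs, taken as a sign of library quality, lay above their mean (sum 345, against 273 to 326), and 0 of 8 neuron markers did (sum 1420.4). In animal 1, where Fxyd6 was lowest, 6 of 6 striatal markers lay above their mean (sum 389.7, against 313 to 342), of which Adora2a, an adenosine receptor gene, was called more variable than the trend (edgeR adjusted p = 0.0444).

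The genes with the pattern over the 5 animals most like that of Atp1b2, among 10936 genes with a mean of at least 100 counts, were Bmyc, Cers2 (which encodes a ceramide synthase) and the mitochondrially encoded mt-Nd4, whose counts are uncertain because nuclear copies of mitochondrial genes can share reads. Their root mean square differences from it were 0.0077, 0.0093 and 0.011 on the log2 scale, against a size of 0.082 for the Atp1b2 deviations themselves. For Fxyd6 (0.098) the nearest were Mtrr (0.014), Epha6 (0.017), which encodes an ephrin receptor, and Zswim3 (0.018). Nearest genes can always be found among so many, and 5 samples give no more than a description.

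A list of 31 genes related to the pump or to ion transport beside it included other FXYD genes, proton pumps and calcium pumps. Of these 31, 25 were tested and none was called in either direction (0.305% and 0% of all genes tested). An unadjusted edgeR p under 0.05 was found for 2 in each direction. The median log2 ratio of the 25 to the trend was 0.051. The most abundant was Slc1a2, the astrocytic glutamate transporter that runs on the sodium gradient, at 302 ± 6.82 RPKM. The calcium pumps Atp2a2 of the endoplasmic reticulum and Atp2b1 and Atp2b2 of the plasma membrane stood at 208 ± 7.98, 111 ± 5.37 and 73.4 ± 5.30. Slc12a5, the neuronal potassium chloride exporter, had 102 ± 3.07, and the sodium calcium exchanger Slc8a2 77.6 ± 3.63. All 6 lay below Atp1b1 in every animal, and Atp2b2 (68.9 to 81.3 RPKM) and Slc8a2 (73.4 to 83.1) lay near Fxyd7 (66.4 to 71.9). Atp1b4, the remaining gene of the Atp1b family by name, had 1 count in animal 3 and 0 in the others. Of the stomach proton pump genes, Atp4a had a mean of 0.163 RPKM and Atp4b had 0 in every library.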

How the data were processed

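The deposited counts are whole numbers that were not normalized (47729 Ensembl genes, 5 libraries). Per the submitters' processing notes, the tools were featureCounts 1.4.6-p4, STAR 2.4.1d and CASAVA 1.7, and the build GRCm38. Not given in the sources used here are the annotation release, the handling of multiply matching reads and the strand setting. The RPKM values deposited by the authors were checked against the counts. Taking the 5 library totals in turn from row to row gave back each of the 117232 entries above 0, to within 0.0011 RPKM plus 0.0002 of the value, so 80.0% of entries had been divided by the total of another library. RPKM used here was therefore worked out anew from the counts, the proper total and the recovered gene length. Symbols, positions and exons came from GENCODE M21 (47224 genes matched) and promoters from RefSeq.

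In R 4.3.3, edgeR 4.0.16 was run with filterByExpr, TMM and a robust glmQLFit (legacy settings, intercept only). The ratio of each gene's quasi-dispersion to the trend over abundance was compared with an F distribution on 4 and 15.3 degrees of freedom in each tail, with Benjamini-Hochberg adjustment over all genes and a threshold of 0.05. The test for more spread was run on simulated counts in which some genes were raised in a single library. These rises were larger than the range of any of the 6 genes, and calls of less spread were not examined. The simulation therefore does not show whether spreads as small as theirs would be called. Deviations use a prior count of 2. Without molecular identifiers, reads may be PCR copies, and the counting errors given cover counting alone.

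Named were the 6 members, the most abundant listed genes and markers, and the 3 genes most like the most variable member of each family. Called genes of the list related to the pump or to ion transport beside it were to be named too (there were none). Fxyd3, Fxyd5, Fxyd2, Atp1b4, Atp4a, Atp4b, the cerebellar genes, Nme7, Gm1848, Lgi4, Adora2a and the red blood cell genes were named after their values were seen. So were Gfap and Fgfr3. Members, lists and tests were chosen with earlier results of these data known. Genes of the catalytic chain are not reported here. Alternatives were limma 3.58.1 and DESeq2 1.42.0, other scaling, filter, prior, pseudocount and gene length, and each animal left out.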

Additional observations from a re-analysis of the deposited data

Results flagged for a closer look

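The balance between Atp1b1 and Atp1b2 in animal 5 stood apart from the other 4 animals. The log2 ratio of Atp1b1 to Atp1b2 was 2.03 in animal 5, against 1.80, 1.82, 1.75 and 1.79 in animals 1 to 4, and the gap to its nearest neighbour was 0.765 of the whole range, above the Dixon limit of 0.71 for 5 samples. The share of Atp1b1 in the beta subunit sum (75.7% in animal 5, against 72.6% to 73.3%) had a gap of 0.763 of its range, and the share of Atp1b2 (18.5%, against 20.7% to 21.6%) one of 0.733. These 3 values come from the same counts and so are a single pattern. Of 27 levels, pair ratios and shares examined, chance alone would mark about 1 in 20. Animal 5 also had the highest sum of neuron markers (1529 RPKM) and the lowest mitochondrial share of counts (3.45%), whose part in the pattern was not tested. More neuron markers lay above their mean in animal 1 (7 of 8) than in animal 5 (6 of 8). Neither the Atp1b1 level nor the Atp1b2 level was marked on its own.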

How the results depend on the processing

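With 1 added to each RPKM and with each animal left out, all 15 pairs kept the direction of their mean, and so they did with the deposited RPKM. There only 14 held 1 order in every animal, since Fxyd7 exceeded Fxyd6 in 4 of 5 (lowest log2 ratio -0.063, exact p = 0.125). No alternative called any of the 6 genes. Pair directions turned for Fxyd7 over Fxyd6 (-1.20) and over Atp1b3 (-1.04) without a length, for Fxyd6 over Atp1b3 (-0.62) with the union of exons, and for Atp1b3 over Fxyd1 (-0.074) with the shortest transcripts. The Atp1b1 share was 70.6% with either transcript length, and the Fxyd7 share 64.9% with the union of exons, 41.2% with the longest and 40.4% with the shortest transcripts. Genes called more variable numbered 249 without a filter (25 less variable), 101 by DESeq2, 19 with a prior that is not robust and 0 with limma (951 unadjusted). They numbered 18 to 44 with 1 animal left out, 26 without animal 3 and 18 without animal 5. With 1 animal left out, the log2 ratio to the trend ran from -1.01 to 0.20 for Atp1b1 (above 0 without animal 1) and from -1.55 to 0.71 for Fxyd1 (below 0 without animal 4). The cause of these moves was not tested beyond the length itself. Depth limits Fxyd1 most, with 294 counts in 1 library. No paired comparison between groups was possible because there is only 1 group.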
